A study of Drosophila melanogaster with 4 samples.

Results

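The data described here are the regions enriched for histone H3 on 3R, the right arm of the third chromosome of Drosophila melanogaster, in heads of adult wild-type Oregon-R flies. Members were chosen by position: every line of the combined list whose sequence is 3R, without the 2 spans 2480000 to 2830000 and 12480000 to 12810000, which hold homeotic gene complexes. That left 4275 of the 4440 combined 3R regions, out of 16757 regions in the whole list, and no member was filtered out. The same rule kept 616 of 645 regions on 3R in the list of replicate 1 and 752 of 781 in the list of replicate 2.

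The study had 2 ChIP libraries made with an antibody named only as H3 antibody3 and 2 Input libraries, 1 for each ChIP replicate, all wild type Oregon-R at the stage labelled Mixed Adult. Flies were raised in population cages and heads were sorted from bodies with sieves, per the labels' protocols. Whether the replicates came from separate cages is not stated there, so their differences may be technical. Heads hold neurons, glia, photoreceptors, fat body and muscle together, so each value is a mixture over cell types. The files hold a start, an end and the authors' score per region, with no read counts, so depth is unknown. Per the labels each Input library served for 1 replicate's list, and how it was used in the calling is not stated.

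Histone H3 is one of the core histones around which DNA is wrapped in every nucleosome. ChIP of H3 against Input reports where more nucleosomal DNA was recovered than sheared chromatin in general supplies, and such profiles often serve as the baseline for antibodies against modified H3. Regions of a kilobase or more are stretches of several nucleosomes. On 3R the low coordinates of FlyBase release 5 lie beside the centromere, where pericentric heterochromatin begins, and the high coordinates end at the telomere. The arm is otherwise mostly euchromatin, in which gene-rich and gene-poor stretches alternate.

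Enrichment was spread along the whole arm in many short regions. Over the 27.2 Mb of 3R that remained, combined regions covered 7.10 Mb, or 26.1% of bases, at 157.02 regions per Mb. Replicate 1 regions covered 0.981 Mb (3.60%) and replicate 2 regions 1.22 Mb (4.49%), a replicate mean of 4.05% ± 0.626 (SD, n = 2). The combined list, deposited for both replicates together, was far denser than either, and the sources used here do not state how it was made.

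Region lengths piled up near a lower limit that differed between the lists. In the combined list the median 3R region was 1455 bp long, with the middle 50% between 1157 and 1878 bp, and 86 regions had exactly the shortest length of 1001 bp. In replicate 1 the shortest was 1301 bp and the median 1489.5 bp, and in replicate 2 the shortest was also 1301 bp and the median 1515 bp. The combined list had the longer tail: 834 of its regions (19.5%) reached 2000 bp, against 56 (9.09%) in replicate 1 and 79 (10.5%) in replicate 2. There were also 24 combined regions of 5000 bp or more, with 0 in replicate 1 and 1 in replicate 2.

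Scores on 3R are given by the median and the middle 90% of each list. In the combined list the median was 0.402 and the middle 90% lay between 0.306 and 0.488, within a full range of 0.136 to 2.67. The medians were 0.564 in replicate 1 and 0.592 in replicate 2. Their middle 90% spanned 0.434 to 0.696 in replicate 1 and 0.451 to 0.724 in replicate 2. Because the scale of the score is not stated, levels are not compared between lists. The 4275 combined regions carried 3044 distinct scores, so some values recur exactly.

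Length and score were related differently in the combined list than in the replicates. In the replicates the longest 25% of regions had the highest median score, 0.594 in replicate 1 and 0.643 in replicate 2, against 0.543 and 0.567 in the shortest 25%. Across regions, Pearson r between length and score was 0.324 over 616 regions of replicate 1 and 0.326 over 752 of replicate 2. In the combined list r was 0.0664 over 4275 regions, and the relation had no single direction: the median score was 0.421 in the shortest 25% of regions, 0.378 in each of the middle classes and 0.420 in the longest 25%. Regions of 1 list share a library and a caller, so these coefficients only describe the lists. Scores of the combined regions were correlated with those of the replicate regions they met, with r = 0.589 over 595 pairs for replicate 1 and 0.576 over 748 pairs for replicate 2. The combined list was deposited for these same replicates together, so the 2 scores of a pair are not independent.

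**Figure D1:**
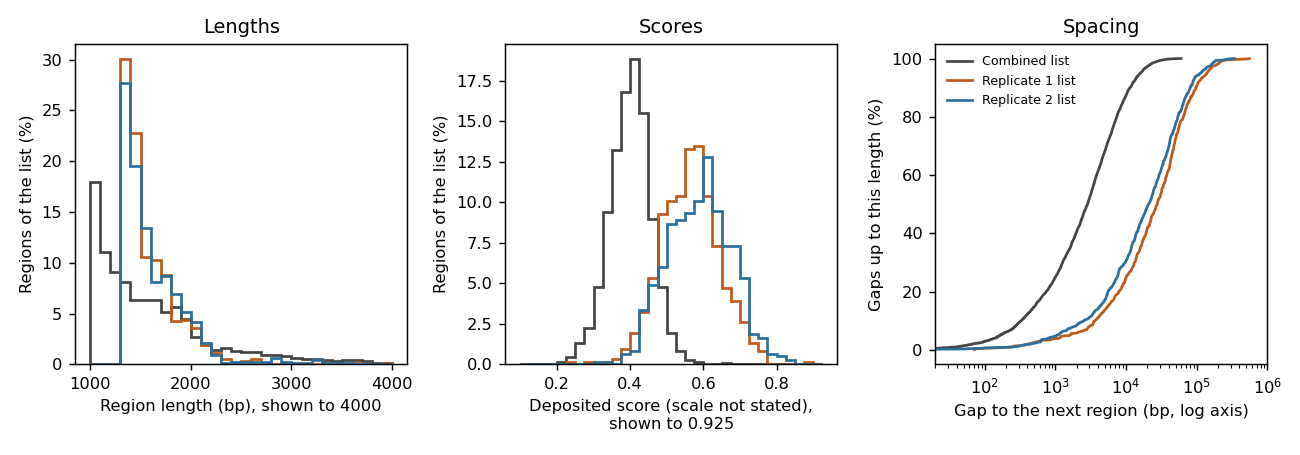
Lengths, scores and spacing of 3R regions outside the left-out spans in the combined list (4275 regions), the replicate 1 list (616) and the replicate 2 list (752). The first 2 panels show the percentage of each list's regions per length or score bin, and the third the cumulative percentage of gaps to the next region on a log axis, and the longest regions and highest scores lie beyond the axes. Combined regions start at 1001 bp and replicate regions at 1301 bp, and the median gap is 2837 bp in the combined list and over 20 kb in both replicate lists.

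The highest scores on 3R belonged to short regions. The 10 highest-scoring combined regions ran from 1001 to 1333 bp, with scores of 0.724 to 2.67, and 0 of them met a region of either replicate. Over all combined regions of the series 13.2% met replicate 1 and 16.0% met replicate 2. At these lengths the shares on 3R were lower: 1.78% and 2.25% of regions of 1001 to 1157 bp met replicate 1 and replicate 2, and 5.89% and 7.58% of those of 1157 to 1455 bp did. A count of 0 among 10 is therefore near what regions of this length show, and nothing is read from it about high scores. The top region, 3R 15275375 to 15276379, scored 2.67, and the next, 3R 13751593 to 13752593, scored 2.31. They stood well above the rest of the arm, since 4 regions of 3R scored over 1 and the others in that group, at 3R 21153866 to 21154885 and 3R 9805758 to 9806795, scored 1.05 and 1.03. The remaining 6 of the 10 began at 4237111, 10069402, 23787791, 18278084, 27713856 and 6788097, and scored 0.885 down to 0.724. All but the last were shorter than 1301 bp, the shortest length in either replicate list. The nearest combined neighbour of any of the 10 was 160 bp away, and the gaps around them had a median of 5012.5 bp. Within the replicate lists, the highest 3R scores were 0.899 at 3R 3296294 to 3297630 in replicate 1 and 0.848 at 3R 9722212 to 9723546 in replicate 2, and each met 1 combined region and 0 of the other replicate.

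The longest regions were mostly met by at least 1 replicate. The 10 longest combined regions ran from 5692 to 10150 bp, with scores of 0.358 to 0.524. Of them 6 met replicate 1, 8 met replicate 2, 5 met both and 1 met neither. In the whole longest class of 3R, 1878 to 10150 bp, 31.2% met replicate 1, 40.9% met replicate 2 and 10.9% met both. A longer region has more bases in which to meet a replicate region. The counts for the 10 are therefore not evidence that the longest regions recur more than others. The longest, 3R 25531187 to 25541336, held 2 regions of each replicate, which filled 3498 bp of it in replicate 1 and 6963 bp in replicate 2. The region 3R 12202220 to 12210465 (8246 bp) also held 2 of each, over 3460 and 4302 bp, and 3R 22508324 to 22517192 (8869 bp) held 2 of replicate 1 and 1 of replicate 2. Regions 3R 11339158 to 11345965 and 3R 18313130 to 18318821 were the others met by both. The replicates divided on 3R 19098230 to 19104637, which replicate 1 filled over 4335 bp and replicate 2 did not meet. They also divided on 3R 6269832 to 6276320, where replicate 2 held 3178 bp and replicate 1 none. The one met by neither was 3R 4251204 to 4257255 (6052 bp, score 0.374).

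Longer combined regions met replicate regions more often, whether counted by region or by base. The combined list was deposited for the same replicates together, so such meeting is not a measure of reproducibility. Only the replicate lists set against each other compare separate libraries. Of the combined 3R regions, 582 (13.6%) met replicate 1, against 13.2% of all combined regions in the series, and 733 (17.1%) met replicate 2, against 16.0% in the series. Both replicates were met by 128 (2.99%, 95% exact binomial interval 2.50 to 3.55%), against 2.80% in the series, so the share on 3R was near that background. The interval covers counting error only, and the series share includes the 3R regions themselves. By arm the share was 2.37% on 2L, 3.88% on 2R and 2.85% on 3L, so 2R was above 3R. The other 3088 (72.2%) met neither and held 63.2% of the combined 3R bases.

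In the shortest 25% of combined regions, 1001 to 1157 bp, 19 of 1069 (1.78%) met replicate 1 and 24 (2.25%) met replicate 2. In the longest 25%, 1878 to 10150 bp, 334 of 1069 (31.2%) and 437 (40.9%) did, and 117 of the 128 regions met by both were in this class. The share of bases inside replicate regions, which takes length into account, had the same order: from the shortest to the longest class it was 1.72%, 5.85%, 13.4% and 20.4% for replicate 1, and 2.14%, 7.08%, 15.5% and 26.7% for replicate 2. The shortest class lies wholly below 1301 bp, the shortest length in the replicate lists. The part of that limit in these shares was not tested.

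Classes by score differed less. In the lowest 25% of scores 11.8% met replicate 1 and 14.2% met replicate 2, and in the highest 25%, 17.3% and 22.8% did. The highest score class held 72 of the 128 regions met by both, although none of the 10 top-scoring regions was among them.

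**Figure D2:**
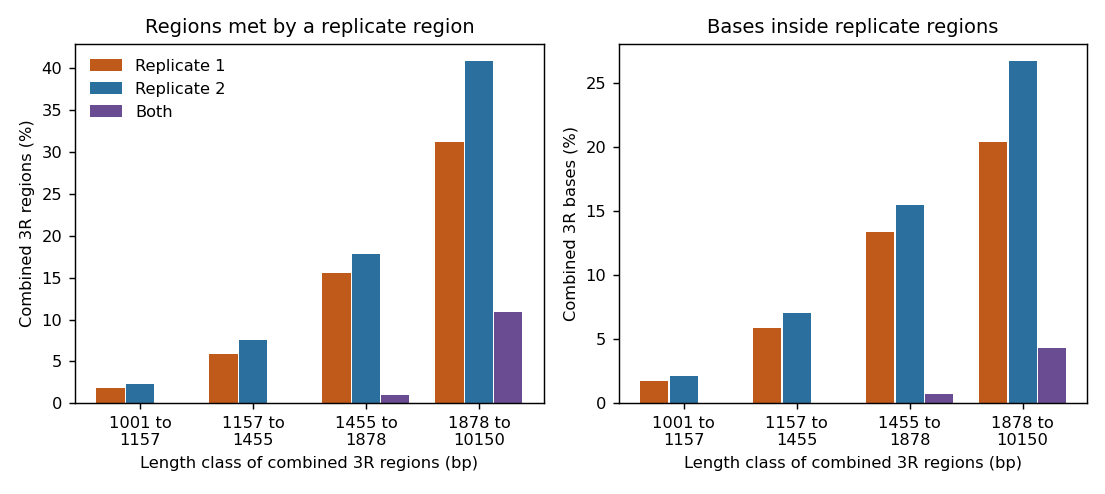
Meeting of combined 3R regions with regions of the replicate lists, by length class (each 25% of the 4275 regions). The combined list was deposited for the same replicates together, so the lists are not independent. Bars on the left give the percentage of regions that meet replicate 1, replicate 2 or both by at least 1 bp, and on the right the percentage of their bases inside replicate regions. Both measures are lowest at 1001 to 1157 bp and highest at 1878 to 10150 bp, where 31.2% of regions meet replicate 1 and 40.9% replicate 2.

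Between the replicates themselves, 119 of 616 replicate 1 regions on 3R (19.3%, 95% exact binomial interval 16.3 to 22.7%) met a replicate 2 region, against 19.1% over the whole replicate 1 list. In the other direction 119 of 752 (15.8%) did, against 15.8% over the whole replicate 2 list. Most replicate 1 regions that met none were not close to one either: their median distance to the nearest replicate 2 region was 11306 bp, 153 had one within 5 kb, and for 44 the nearest was 50 kb or more away. Where regions did coincide, in 122 pairs, the midpoints lay 402.5 bp apart at the median, with 1278 bp of overlap. Their scores were weakly correlated (Pearson r = 0.351, Spearman rho = 0.342 over 122 pairs), while r for their lengths was 0.00355. Leaving out the 2 pairs whose replicate 1 score lay farthest from the median gave r = 0.345. The midpoint of replicate 2 was on the telomere side in 58 of the 122 pairs.

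Nearly all replicate regions lay in the combined list: 593 of 616 (96.3%) in replicate 1 and 737 of 752 (98.0%) in replicate 2. Many crossed an edge of a combined region, and 334 (54.2%) of replicate 1 and 384 (51.1%) of replicate 2 lay wholly inside one. The 23 replicate 1 regions outside the combined list had a median score of 0.572, and the 15 of replicate 2 a median of 0.540.

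The combined regions named here as most deeply shared by the replicates lay between 12202220 and 25541336. By bases covered in both, the leading region was again 3R 25531187 to 25541336 with 3100 bp, then 3R 12202220 to 12210465 with 2588 bp and 3R 17229548 to 17232558 with 2041 bp. The regions 3R 14178289 to 14180783 (2495 bp long, score 0.572) and 3R 20613420 to 20616711 (3292 bp, score 0.512) had 1878 and 1876 bp in both. These were picked after their values were seen. By position along the arm, 41 of 1048 combined regions (3.91%) in the telomeric 20% of the arm met both replicates. In the preceding parts, from the centromere on, the counts were 15 of 712 (2.11%), 19 of 873 (2.18%), 18 of 796 (2.26%) and 35 of 846 (4.14%).

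Along the arm the covered share varied severalfold at a scale of 100 kb. Over 273 windows of 100 kb the combined list covered between 7.04% and 52.5% of bases, with a median of 25.6% and the middle 50% of windows between 19.2% and 31.4%. A window held 5 to 28 combined regions, at most 7 regions of replicate 1 and at most 9 of replicate 2. Neighbouring windows resembled each other weakly (Pearson r = 0.366 over 270 pairs in the combined list) and windows 200 kb apart less so (r = 0.136 over 267 pairs). For the replicates r between neighbours was 0.209 and 0.160.

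The replicates matched each other only loosely at this scale. Across the 273 windows the replicates' covered shares correlated with Pearson r = 0.344 and Spearman rho = 0.311, as a description of windows that share the arm and its regional density. Over 53 windows of 500 kb r was 0.597, and over 545 windows of 50 kb it was 0.261. Of the 69 windows in the top 25% for replicate 1, 30 were also in the top 25% for replicate 2, and 9 were in its bottom 25%. Of the 69 at the top for replicate 2, 12 were at the bottom for replicate 1. Windows with no replicate region numbered 36 for replicate 1 and 30 for replicate 2, and 11 windows had none of either. In those 11 the combined list still covered 12.8% at the median and at most 25.02%.

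**Figure D3:**
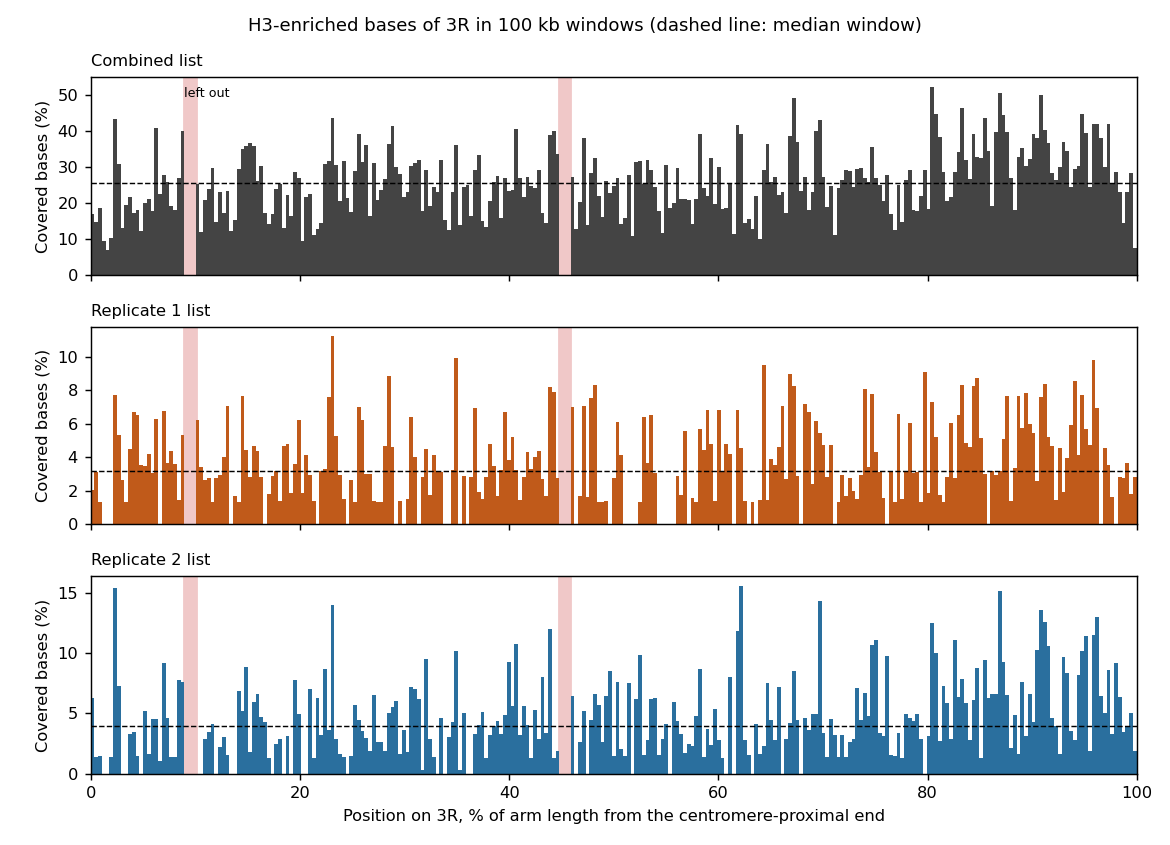
Percentage of bases in H3-enriched regions in 273 windows of 100 kb along 3R, for the combined list, the replicate 1 list and the replicate 2 list, with position given as a percentage of arm length from the centromere-proximal end. Dashed lines mark the median window of each list (25.6%, 3.16% and 3.94%) and shaded bands the left-out spans. A trough near the centromere end is shared by the lists, and the densest stretch lies in the last 20% of the arm, before a drop toward the telomere.

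**Figure D4:**
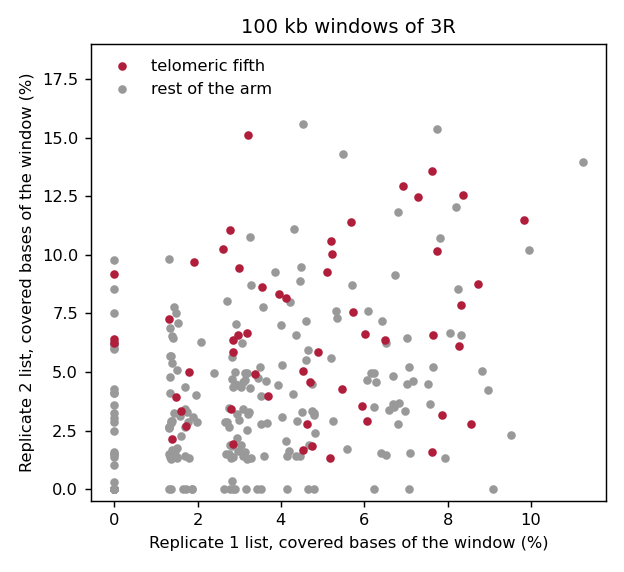
Covered bases of each 100 kb window of 3R in replicate 1 (horizontal axis, %) and replicate 2 (vertical axis, %), 1 point per window, with the 55 windows of the telomeric 20% of the arm in red and the 218 others in grey. The points are widely scattered (Pearson r = 0.344), and windows listed at 0 lie on the axes.

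The densest part of 3R was its telomeric 20%, from 22324043 to the end. The combined list covered 32.9% of it, against 24.3% of the rest of the arm, 1.35 times as much. The ratio was 1.36 in replicate 1 (4.56% against 3.36%) and 1.72 in replicate 2 (6.73% against 3.91%), and in each list this part was the most covered of 5 equal parts. The parts before it were at 22.2%, 24.99%, 24.7% and 25.2% in the combined list from the centromere on. Of the 69 windows in the top 25% of the combined list, 31 lay in the telomeric 20%, which holds 55 of the 273 windows, and 3 of the 69 in the bottom 25% did. With 2 replicates no test of this difference was made, and the part was singled out after the landscape had been seen. Window by window, the replicates matched less closely within this part. Pearson r between them was 0.190 over its 55 windows and 0.331 over the other 218.

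Scores and lengths were also higher there. The median score was 0.416 in the telomeric 20% and 0.398 in the rest for the combined list, 0.587 and 0.559 for replicate 1, and 0.622 and 0.579 for replicate 2. Median length was 1512 bp there against 1441 bp in the rest of the combined list, and the median gap 2049 bp, against 2968.5 to 3324.5 bp in the other 4 parts. Across the 273 windows, covered share and median score of the combined list had a Pearson r of 0.380. The longest unbroken run of windows above the arm's median, 14 windows from 24700001 to 26100000, lay within it.

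A higher covered share toward the telomere was also found on the other autosomal arms. Telomeric 20% over rest in the combined list was 1.35 on 3R, against 1.52 on 2L, 1.34 on 2R and 1.22 on 3L. In replicate 1 it was 1.36 on 3R, with 1.74, 1.36 and 1.31 on 2L, 2R and 3L, and in replicate 2 it was 1.72 on 3R, with 1.87, 1.32 and 1.26. Between the fourth and the fifth part the combined share was 25.2% before and 32.9% after on 3R, 22.2% and 29.1% on 2L, 28.2% and 33.1% on 2R, and 24.4% and 24.95% on 3L. Combined median scores and lengths were also higher in the telomeric 20% of 2L, 2R and 3L. The scores were 0.411 against 0.402 on 2L, 0.413 against 0.402 on 2R and 0.409 against 0.401 on 3L. In replicate 2 the median score on 3L went the other way, 0.570 against 0.585, as did its median length, 1505 against 1507 bp.

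**Figure D5:**
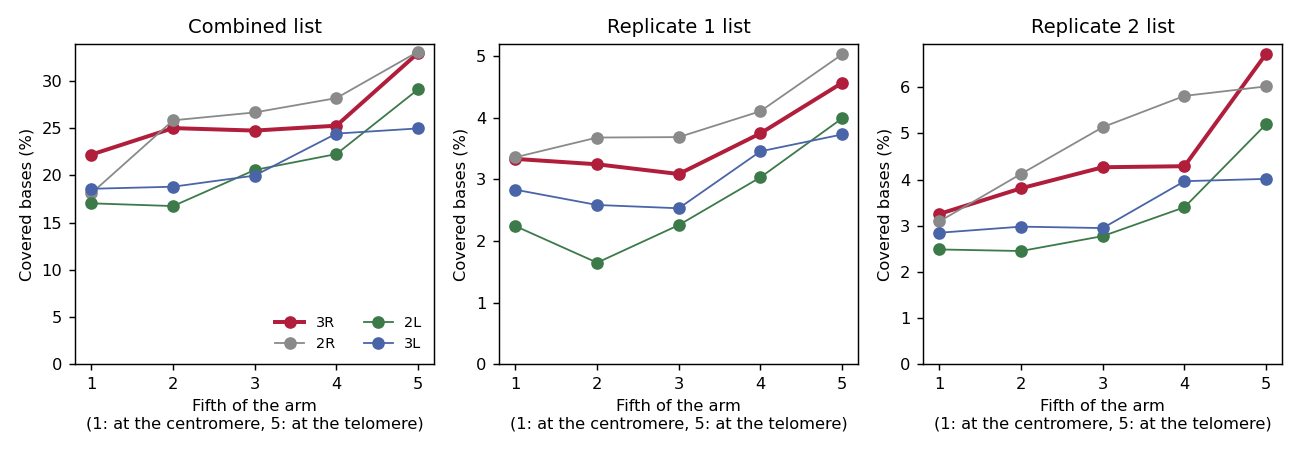
Percentage of bases covered in 5 equal parts of each major autosomal arm, from the centromere (1) to the telomere (5), in the combined list and the replicate lists. 3R (thick red line) stays between 22.2% and 25.2% over its first 4 parts in the combined list and reaches 32.9% in the last, and each arm is more covered in its telomeric part than in its part beside the centromere.

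The most covered windows sat in that distal stretch. The window 22400001 to 22500000 was covered to 52.5% by 27 combined regions, with 4 regions of replicate 1 and 7 of replicate 2. Windows 24200001 to 24300000 (50.7%), 25300001 to 25400000 (50.01%), 18700001 to 18800000 (49.3%) and 23200001 to 23300000 (46.6%) followed, and of these 5 only 18700001 to 18800000 lies outside the telomeric 20%. All 5 held at least 2 regions of replicate 1 and 5 of replicate 2. The replicates were uneven in 24200001 to 24300000, where replicate 2 covered 15.1% and replicate 1 covered 3.21%. They were alike in 18700001 to 18800000, with 8.24% in replicate 1 and 8.55% in replicate 2.

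The end of the arm was an exception. Its last 500 kb as a whole were covered to 18.96% in the combined list, 2.79% in replicate 1 and 4.13% in replicate 2. All 3 shares lay below those of the whole arm (26.1%, 3.60% and 4.49%). The window 27800001 to 27900000 was covered to 7.36% by 5 combined regions, with 2 of replicate 1 and 1 of replicate 2, and it contains a desert from 27865242 to 27896053 (30812 bp). The final combined region ended 7484 bp before the end of the sequence, and the final replicate 1 region 7176 bp before it. Replicate 2 had none in the last 88637 bp.

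At the other end, a trough near the centromere, though not at the very end of the sequence, was common to all 3 lists. The first window, 1 to 100000, was covered to 16.9% in the combined list, 2.08% in replicate 1 and 6.3% in replicate 2. The least covered window of the arm, 400001 to 500000, had 7.04% in 5 combined regions, and the window 300001 to 400000 had 9.51% in 8, with 0 regions of either replicate in both windows. The stretch from 281679 to 598253, 316.6 kb long, was the longest on 3R without a region of either replicate, and 22 combined regions covered 9.04% of it. Just beyond it, the window 600001 to 700000 was covered to 43.5% by 18 combined regions, with 5 regions of replicate 1 and 9 of replicate 2. The first 500 kb as a whole were covered to 13.3% in the combined list, 1.31% in replicate 1 and 1.84% in replicate 2.

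Other windows at the low end were 5600001 to 5700000 (9.39%) and 17800001 to 17900000 (9.86%), in the interior of the arm. In the first of these replicate 1 had 1 region and replicate 2 none, and in the second each had 1.

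Spacing showed a mixture of close neighbours and wide gaps. The median gap between neighbouring combined regions was 2837 bp, with the middle 50% between 1004 and 6279 bp. Of 4272 gaps, 1067 (24.98%) were under 1000 bp and 628 (14.7%) under 500 bp, while 113 reached 20 kb. In 2720 windows of 10 kb, 450 (16.5%) held the midpoint of no combined region, 925 (34.0%) of 1, 814 (29.9%) of 2 and 12 (0.441%) of 5, the highest number. The replicate lists were sparse, with median gaps of 27629 bp in replicate 1 and 20762 bp in replicate 2.

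Dense clusters, taken as 5 or more combined regions in a row with gaps under 1000 bp, numbered 24 and held 128 regions (2.99%). By size, 17 had 5 regions, 6 had 6 and 1 had 7. They spanned 6785 to 22293 bp, 10882 bp at the median, and regions filled 69.5% to 93.3% of their span. Regions inside clusters had a median length of 1444 bp against 1455 bp outside clusters and a median score of 0.408 against 0.402. Of the 24 clusters 13 held a region of replicate 1, 16 of replicate 2, 9 of both and 4 of neither. Single combined 3R regions met neither in 72.2% of cases, but a cluster offers 5 to 7 regions to meet, so these counts are not evidence that clusters recur more than other regions. Of the clusters, 10 lay in the telomeric 20% of the arm.

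The cluster with the most regions, 7, was 3R 13622230 to 13636559, 14330 bp with 73.3% filled and a median score of 0.354. It held 1 region of replicate 1 and 2 of replicate 2. Next, with 6 regions each, came 3R 6491870 to 6505121 (2 of each replicate), 3R 12202220 to 12222827 (3 of replicate 1 and 2 of replicate 2), 3R 12358325 to 12367500 (1 of replicate 1), 3R 16313580 to 16324296 (2 of replicate 1), and 3R 22485504 to 22498109 and 3R 24183899 to 24195735 (2 of replicate 2 each, none of replicate 1). The cluster at 12202220 begins with the third-longest region of the arm and is filled to 90.6%. The widest cluster, 3R 670267 to 692559, is 22293 bp long with 91.5% filled. It held 3 regions of replicate 1 and 4 of replicate 2, and lies just beyond the trough near the centromere.

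Deserts, taken as 30 kb or more without a combined region, numbered 30 and made up 1147 kb, 4.21% of the arm. Replicate regions were nearly absent from them too: 24 of the 30 held no base of either replicate, and replicate regions took up 0.184% of desert bases in replicate 1 and 0.121% in replicate 2. Since the combined list takes in nearly all replicate regions, this is not independent of the way deserts were defined. The longest was 3R 5641474 to 5701283 (59810 bp), then 3R 12025743 to 12082210 (56468 bp), 3R 399605 to 447935 (48331 bp), 3R 19675277 to 19723008 (47732 bp) and 3R 9451316 to 9497377 (46062 bp). None of these 5 held a replicate base. Of the 30 deserts, 6 lay in the first 20% of the arm and 2 in the last.

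Several deserts came in pairs with only a few regions between them. From 5641474 to 5738420, 96.9 kb, the only combined regions were 2, which left 2.45% covered, and neither replicate had a region there. From 12025743 to 12131983, 106.2 kb, 5 combined regions lay between the deserts, with 2 regions of replicate 1 and 1 of replicate 2. The third pair, from 399605 to 532285, belonged to the trough near the centromere. The 60 combined regions beside the deserts had a median length of 1523 bp, and 24 of them scored at or above the arm's median.

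Stretches chosen as the longest without a region of 1 replicate could hold regions of the other. For reference, the whole arm had 22.6 regions per Mb in replicate 1 and 27.6 per Mb in replicate 2. Replicate 1 had no region from 15053915 to 15609257 (555.3 kb), where replicate 2 had 14 and the combined list 81 regions over 20.8% of bases. It had none from 14196728 to 14687089 (490.4 kb), where replicate 2 had 15. Replicate 2 had none from 257697 to 598253 (340.6 kb), where replicate 1 had 1, and none from 734643 to 1016793 (282.2 kb), where replicate 1 had 5. Apart from the trough near the centromere, the longest stretch free of both was 3671828 to 3891961 (220.1 kb), with 11.9% covered by 18 combined regions.

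Set against the other major autosomal arms, 3R was more covered than 2L, 2R and 3L together in all 3 lists. The ratio was 1.14 in the combined list (26.1% on 3R against 22.8% on the others), 1.13 in replicate 1 (3.60% against 3.19%) and 1.19 in replicate 2 (4.49% against 3.78%), a replicate mean of 1.16 ± 0.0396 (SD, n = 2). It did not exceed every arm, since 2R was at 26.4% in the combined list, 3.97% in replicate 1 and 4.84% in replicate 2. There were 157.02 combined regions per Mb on 3R and 138.3 on the others, with median lengths of 1455 bp on 3R and 1440 bp on the others. Median scores were 0.402 on 3R and 0.405 on the others.

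Wide gaps in the combined list were fewer on 3R. There were 30 gaps of 30 kb or more on 3R, 1.10 per Mb and 4.21% of its length, whereas 2L had 74 (3.22 per Mb, 14.3%), 2R had 34 (1.61 per Mb, 7.55%) and 3L had 70 (2.85 per Mb, 12.4%). The widest gap of 3R measured 59810 bp, and those of 2L, 2R and 3L measured 191520, 137370 and 111320 bp. The replicate lists shared this only by share of length, and not against 2R. By number, such gaps were most frequent on 3R, with 10.7 per Mb in replicate 1 and 10.8 in replicate 2. On 2L, 2R and 3L there were 9.04, 10.4 and 9.33 per Mb in replicate 1, and 9.43, 9.32 and 9.66 in replicate 2. Gaps of 30 kb or more made up 81.6% of 3R in replicate 1, with 86.3% of 2L, 78.7% of 2R and 84.6% of 3L, and 75.4% of 3R in replicate 2, with 82.2%, 71.3% and 82.5%. The widest gaps on 3R, 555343 bp in replicate 1 and 340557 bp in replicate 2, were the widest and the third widest of the 4 arms. Dense clusters numbered 0.882 per Mb on 3R and 0.993 on 2R, against 0.304 on 2L and 0.204 on 3L. Each arm gives 1 value per list, so these differences are descriptions without a test. The 2 spans were left out of 3R alone, and no span was left out of the other arms.

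At the limits of the left-out spans, regions on both sides were as follows. The last combined region kept before the first span was 5477 bp long with a score of 0.408, and the first left out was 1009 bp with 0.431. After that span the first kept was 1873 bp with 0.433, and the last left out was 1001 bp with 0.398. Before the second span the last kept was 1060 bp with 0.302 and the first left out 1155 bp with 0.487. After it the first kept was 1186 bp with 0.327, and the last left out was 1217 bp with 0.339.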

How the data were processed

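Histone H3 ChIP-seq of adult heads was analysed from 3 region lists on FlyBase release 5, per the file headers: 1 per ChIP replicate and 1 for both together. A line gives the region's limits and a score deposited by the authors on an unstated scale. Per the submitters' processing notes, Bowtie 0.12.7 was used. The sources used here name neither the region caller nor its threshold or the sequencing depth, so no interval from depth can be given. Binomial intervals on shares of regions cover counting only, and regions are not independent.

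Members and lists were chosen with earlier results of these data known. 3R regions touching either left-out span by 1 bp were dropped, as were gaps across a span. Windows counted only bases outside the spans, and a window with over 50% inside was left out, as was the incomplete last window. Regions met when they shared at least 1 bp. Named items were, by rule, the 10 highest-scoring and 10 longest regions, 5 clusters (by regions, then by position, with all clusters tied at 6 regions named), 5 deserts, and the 5 most and 5 least covered 100 kb windows, and others are said to be chosen after their values were seen or are edges of stretches described. No significance test was made, since there are 2 ChIP libraries. Regions are given without genes or sequence: the available gene table uses release 6 coordinates, and no genome was used here. Interval counting was tested on simulated data. The software was scipy 1.17.1, pandas 2.3.3 and numpy 2.4.6 under Python 3.11.15, with matplotlib 3.10.9 for plots. Alternatives are given in the closing section.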

Additional observations from a re-analysis of the deposited data

How the results depend on the processing

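Where no cause is named, the cause was not tested. The share of 3R in combined regions was 26.5% with the left-out spans kept in. It was 13.4% for regions at or above the median score, by construction, and 4.05% as the mean of the replicate lists (3.60% and 4.49% with 1 replicate left out). The ratio of 3R to the other autosomal arms stayed above 1 in each setting: 1.13 to 1.19 with 1 replicate left out, and 1.09 for regions at or above the median score of the whole list. The covered share of the telomeric 20% was 1.36 to 1.72 times that of the rest of 3R with 1 replicate left out, and 1.77 times for regions at or above the median score. Scores were higher in that part, so the score filter favours it and 1.77 is no independent check. The telomeric settings were chosen after the data were seen, as were spacing, length and deserts by single replicate list. Median spacing was 3547.5 bp after merging neighbours closer than 500 bp, 5819 bp above the median score, and 20762 to 27629 bp in single replicate lists. Median length was 1579 bp after merging and 1489.5 to 1515 bp in single replicate lists. The number of clusters, 24, depends on its definition: it was 4 with gaps under 500 bp, 93 under 2000 bp, 56 with at least 4 regions and 7 with at least 6. Deserts numbered 113 from 20 kb and 2 from 50 kb, 28 when free of all 3 lists and 29 when free of the combined list and either single replicate list. The correlation of the replicates was 0.261 at 50 kb, 0.338 at 100 kb moved by 50 kb, 0.458 at 200 kb, 0.597 at 500 kb and 0.313 without the 2 windows farthest from the median. With 50% of both regions shared, 12.8% of replicate 1 regions met replicate 2 and 1.38% of combined regions met both. The first share was 14.3% in the setting limited to regions at or above the median score. That drop does not mean that higher-scoring regions met less often. Replicate 1 regions that met replicate 2 had a median score of 0.570, against 0.563 for those that did not. The share of combined regions that met both was 6.32% among those of at least 1500 bp. No paired analysis was possible because the lists hold no value for the Input libraries. With depth unknown, a region missing from a replicate list is not shown to lack enrichment.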
